A study of Homo sapiens with 18 samples.

Results

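The 273 regions described here carried a ChIP-seq peak for dimethylated lysine 9 of histone H3 (H3K9me2) in at least 1 of 4 LNCaP lines. They overlapped no peak for the V5-tagged enzyme EHMT1 in these lines and none in parental LNCaP cells, the only cells profiled with an EHMT1 antibody. They were defined by measured values, namely by the presence and absence of deposited peaks. All H3K9me2 peaks on chromosomes 1 to 22 and X that shared at least 1 bp were merged into 1404 regions, and the 273 were those that overlapped none of the 5 lists of EHMT1 or V5 peaks. The other 1131 regions overlapped at least 1 such list. Neither the number of the 273 regions nor their lack of an EHMT1 peak is therefore a finding.

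LNCaP cells derive from a human prostate cancer and respond to androgens. Stable lines carried a doxycycline-inducible construct for V5-tagged EHMT1, either wild-type (WT) or with lysine replaced by arginine at 1 of 2 neighbouring residues (K450R or K451R) or at both (K450RK451R). All 4 lines received 0.5 µg/ml doxycycline for 2 days and were examined with antibodies against V5 and against H3K9me2, while an EHMT1 antibody was used on untreated parental LNCaP cells. The 18 samples formed 9 groups of 2 replicates, with 1 peak list for each group. Expression came from an introduced lentiviral construct on top of the cells' own EHMT1 gene, and the sources used here do not say whether a line was 1 clone. It was not given whether both replicates or 1 of them entered a peak list, so none of the values below has a replicate error and no comparison between lines could be tested over replicates.

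EHMT1, also called GLP, forms a complex with its relative EHMT2 (G9a) that writes mono- and dimethylation on lysine 9 of histone H3 in euchromatin, and its ankyrin repeats bind the same marks. Other enzymes (SUV39H1, SUV39H2, SETDB1) methylate this residue mainly in the satellite DNA around centromeres and at transposons. H3K9me2 is known as a mark of silent chromatin that usually spreads over broad domains, whereas the deposited lists hold narrow peaks with a median width of 142 to 143 bp.

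Windows of 201 bases around the summits of 6 of the regions are printed first, because most of the results below turn on what kind of DNA lay under the peaks. They were read from the forward strand of hg19 (GRCh37). In the first 3, from introns, upper and lower case alternate every 18, 45 or 4 bases, which is the repeat period found there, so that the tandem copies can be compared by eye. The fourth came from a stretch of alpha satellite, the repeat of centromeres, and its capitals mark 30 bases at its start and the 30 bases that lie 171 bases further on, of which 27 were identical. In the fifth, from a coding exon of FOXA1, capitals mark CpG dinucleotides. In the sixth, an intergenic region, they mark a match to the CENP-B box (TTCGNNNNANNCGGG), the site in alpha satellite that the centromere protein CENP-B binds.
MICAL3 intron 16, period 18, chr22:18360198-18360398: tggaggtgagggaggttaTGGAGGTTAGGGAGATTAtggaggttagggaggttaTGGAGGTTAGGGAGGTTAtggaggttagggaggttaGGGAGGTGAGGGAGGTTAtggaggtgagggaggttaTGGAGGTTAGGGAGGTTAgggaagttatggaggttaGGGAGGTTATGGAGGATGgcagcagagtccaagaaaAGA
CHL1 intron 2, period 45, chr3:303605-303805: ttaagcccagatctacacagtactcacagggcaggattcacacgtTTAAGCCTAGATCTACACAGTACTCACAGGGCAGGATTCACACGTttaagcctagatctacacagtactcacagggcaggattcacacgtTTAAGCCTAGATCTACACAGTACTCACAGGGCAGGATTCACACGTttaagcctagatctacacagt
CFAP61 intron 25, period 4, chr20:20317976-20318176: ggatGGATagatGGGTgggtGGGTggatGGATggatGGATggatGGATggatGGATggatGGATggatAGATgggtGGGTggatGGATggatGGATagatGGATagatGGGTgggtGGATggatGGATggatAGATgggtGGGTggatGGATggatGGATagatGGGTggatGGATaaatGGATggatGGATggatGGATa
ANKRD30BL intron, period 171, chr2:132975415-132975615: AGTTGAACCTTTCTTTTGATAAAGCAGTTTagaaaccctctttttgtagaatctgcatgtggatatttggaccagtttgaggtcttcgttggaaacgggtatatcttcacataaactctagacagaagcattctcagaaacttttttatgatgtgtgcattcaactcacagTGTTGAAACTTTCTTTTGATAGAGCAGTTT
FOXA1 coding exon 2, chr14:38061675-38061875: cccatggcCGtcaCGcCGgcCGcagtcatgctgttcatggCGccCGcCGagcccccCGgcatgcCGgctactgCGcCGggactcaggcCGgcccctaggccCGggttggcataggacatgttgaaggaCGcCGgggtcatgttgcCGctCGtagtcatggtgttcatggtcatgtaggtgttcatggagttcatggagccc
Intergenic region with a peak in the K450RK451R line, chr19:27739378-27739578: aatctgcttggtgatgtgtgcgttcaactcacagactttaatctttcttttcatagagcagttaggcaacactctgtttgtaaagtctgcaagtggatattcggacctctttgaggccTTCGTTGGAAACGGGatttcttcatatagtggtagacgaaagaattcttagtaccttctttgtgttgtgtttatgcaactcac

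Peaks at the 273 regions were rarely shared between lines. A peak in a single H3K9me2 list was found at 241 of 273 regions (88.3%, 95% Wilson interval 83.9 to 91.6), beside 40.4% of all 1404 merged regions and 28.8% of the 1131 regions with an EHMT1 or V5 peak. Of the others, 28 had a peak in 2 lists and 4 in 3 lists. None had one in all 4 lists (0 of 273, which allows a share of up to 1.1%), whereas 468 of the 1131 regions with an EHMT1 or V5 peak did. These intervals cover counting error only, and neighbouring regions are not independent of each other.

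Of the 273 regions, 31 (11.4%, interval 8.12 to 15.7) had a peak in the WT list, beside 49.3% of all merged regions. The K450R list marked 38 (13.9%, 10.3 to 18.5), beside 51.2%. The K451R list marked 150 (54.9%, 49.0 to 60.7), beside 80.3%, and the K450RK451R list 90 (33.0%, 27.7 to 38.7), beside 57.7%. The order of the lines was the same among the 273 regions and over all regions. The regions marked in 1 line alone numbered 23 in WT, 26 in K450R, 124 in K451R and 68 in K450RK451R.

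The lines ranked in the same order by number of regions and by size of list. Their order by depth was another: the list with the most reads gave the most regions, and that with the fewest gave the second most. The part of depth in these numbers was not tested. The reads behind each list, estimated from its background, were 17.9 M (M, mega) in the WT line, 14.0 M in K450R, 27.6 M in K451R and 8.79 M in K450RK451R. The lists held 709, 740, 1133 and 833 peaks on these chromosomes. When only the 709 peaks with the highest −log10 p (the minus logarithm of the peak caller's p-value) of each list were used, 98 regions without an EHMT1 or V5 peak were left. Of these, 31 had a peak in WT, 24 in K450R, 15 in K451R and 37 in K450RK451R, so that K451R went from the line with the most such regions to the one with the fewest. Seen from the lists, the regions took in 31 of the 709 WT peaks (4.37%), 38 of 740 in K450R (5.14%), 150 of 1133 in K451R (13.2%) and 91 of 833 in K450RK451R (10.9%).

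**Figure D1:**
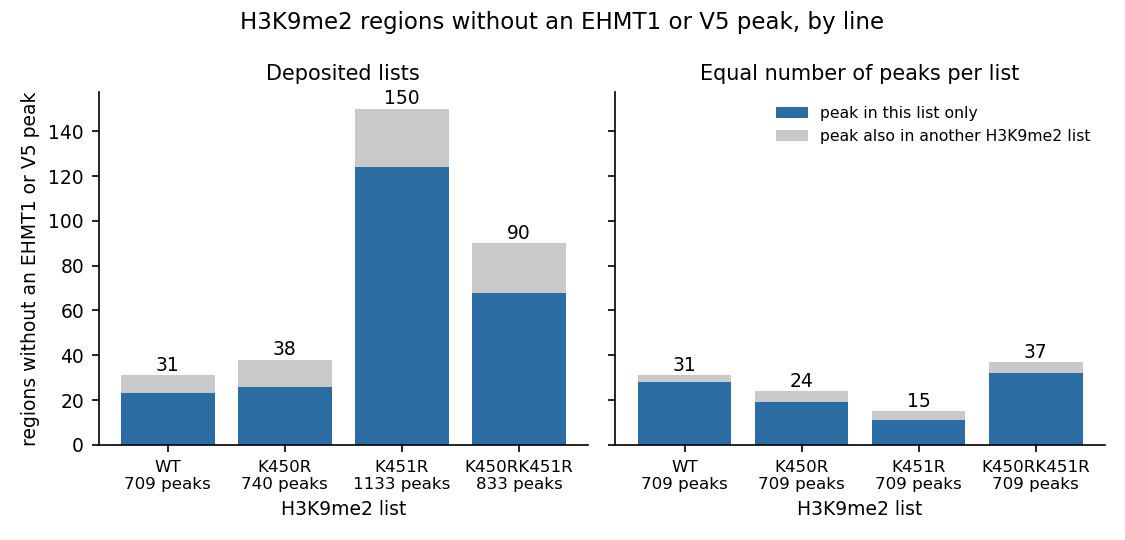
Number of H3K9me2 regions without an EHMT1 or V5 peak (vertical axis) that had a peak in each of the 4 H3K9me2 lists (horizontal axis), split into regions with a peak in this list only (blue) and in a further H3K9me2 list (grey), from the deposited lists (left) and from 709 peaks per list (right). The K451R bar stood highest with 150 regions on the left and lowest with 15 on the right.

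The peaks were low. Fold enrichment, the ratio of reads over the summit to the local background with 1 added to each, had a median of 5.69 in WT, 5.89 in K450R, 5.56 in K451R and 6.12 in K450RK451R. At the regions with an EHMT1 or V5 peak the medians were 7.28, 7.25, 6.25 and 7.21. Whether an input control entered the local background was not given in the sources used here, so that enrichment in satellite and repeat DNA is relative to a background of unknown make. The difference was wider in reads: the median pileup over the summit was 14 reads in WT, 11.5 in K450R, 18 in K451R and 9 in K450RK451R, against 36, 34, 43 and 29. The highest −log10 q of a region (from the q-value of the peak caller) ranged from 1.4 to 18.9 with a median of 5.57, against a median of 14.6 at the regions with an EHMT1 or V5 peak. The regions were also narrower, with a median width of 112 bp against 150 bp. These heights are given as a description, since the regions were chosen on peak calls.

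**Figure D2:**
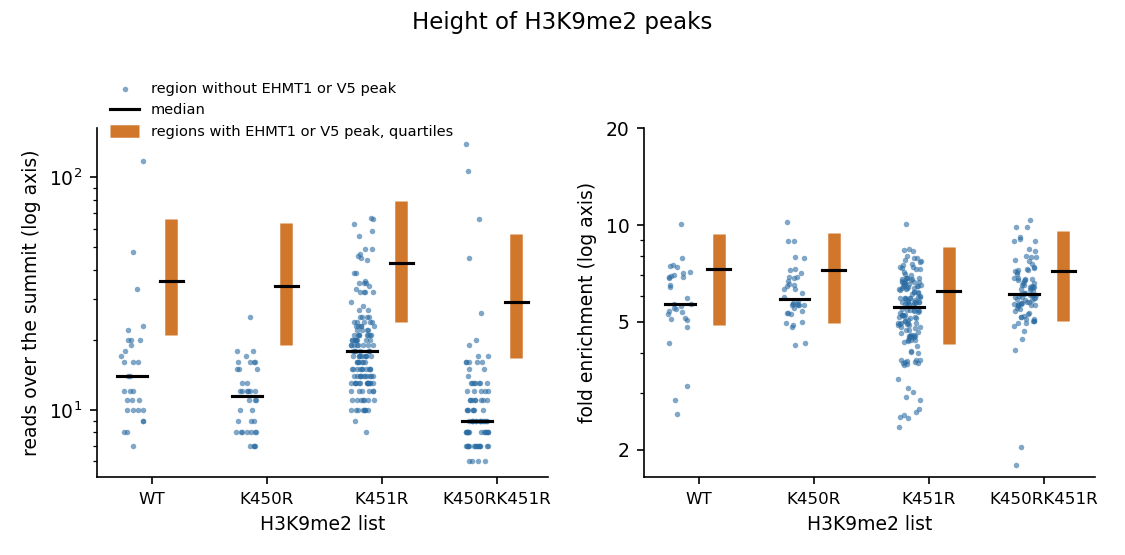
Reads over the summit (left, log axis) and fold enrichment (right, log axis) of H3K9me2 peaks in each line, with 1 blue point for each region without an EHMT1 or V5 peak, orange bars for the quartiles of regions with such a peak and black lines for medians. Most blue points lay below the orange bars on the left, and the 2 sets overlapped widely in fold enrichment.

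Absence from the EHMT1 and V5 lists did not mean distance from them. The nearest EHMT1 or V5 peak lay at a median of 7820 bp, from 20 bp to 558000 bp. It was within 1 kb at 62 of the 273 regions (22.7%), within 10 kb at 143 (52.4%) and within 100 kb at 222 (81.3%). The share of genome positions as near to such a peak was not computed, so these values show no closeness particular to the regions. The list of V5 peaks in the K450RK451R line, which with 14594 peaks was the longest, lay within 10 kb of 129 regions, the list of endogenous EHMT1 within 10 kb of 103 and the WT V5 list within 10 kb of 58. Regions near an assembly gap were closer to such a peak (median 2740 bp) than those farther away (42800 bp). The peak lists do not show EHMT1 signal below the calling threshold, so that the level of EHMT1 at these regions is not known.

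**Figure D3:**
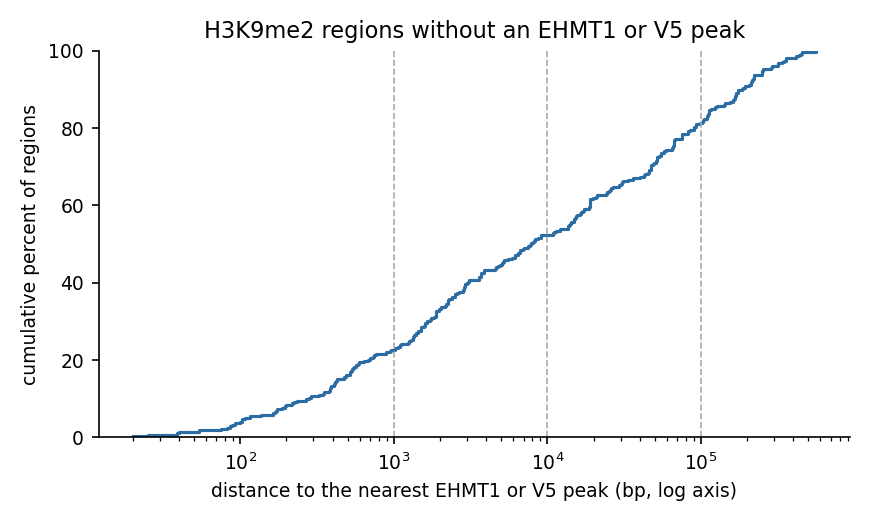
Cumulative percent of the 273 regions (vertical axis) by distance to the nearest EHMT1 or V5 peak (horizontal axis, bp, log axis), with dashed lines at 1, 10 and 100 kb. The curve passed 22.7% at 1 kb, 52.4% at 10 kb and 81.3% at 100 kb.

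At the edge of the definition, the regions nearest to an EHMT1 or V5 peak without overlap were chr12:130876512-130876792 (20 bp away), chr9:45352304-45352431 (25 bp) and chr7:100550946-100551045 in MUC3A (39 bp). The regions left out by the smallest overlap were chr22:50467501-50467675, which shared 11 bp with a V5 peak of the K450RK451R line, chr3:182735937-182736181, which shared 12 bp with that list, and chr2:91597680-91597787, which shared 33 bp with an EHMT1 peak. The K450RK451R V5 list alone removed 201 regions, and the EHMT1 list alone removed 56. Without the K450RK451R V5 list, 474 regions would have been without a peak.

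The regions differed from the other H3K9me2 regions in their position on the chromosomes. An assembly gap of at least 10 kb, which in hg19 marks centromeres, the short arms of acrocentric chromosomes, telomeres and other unfinished stretches, lay within 1 Mb of 162 of 273 regions (59.3%, interval 53.4 to 65.0) and of 893 of 1131 regions with an EHMT1 or V5 peak (79.0%, 76.5 to 81.2). The difference was −19.6 percentage points (−26.0 to −13.4, adjusted p = 2.94e-10 by Fisher's exact test, two-sided, adjusted over 6 comparisons after Benjamini and Hochberg). It was smaller with H3K9me2 peaks of a −log10 q of at least 5 (−11.4 points) and with a distance of 5 Mb (−7.64 points), and it missed the threshold at a −log10 q of 10, where 31 regions were left (−6.34 points, adjusted p = 0.828 by the exact test). Both shares lay above the 10.7% of genome bases that are as near to a gap. A protein-coding gene was overlapped by 91 regions (33.3%, 28.0 to 39.1) against 137 (12.1%, 10.3 to 14.1), a difference of 21.2 points (15.5 to 27.3, adjusted p = 1.27e-14 by the same exact test). With H3K9me2 peaks filtered at a −log10 q of 5 it was 13.8 points and passed the test. Here both lay below the 45.8% of bases within coding genes. The p-values cover counting error between 2 sets of regions and not the spread between replicates. They also treat the regions as independent, which neighbouring or copied regions are not, so that they are likely too small.

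An exon of a coding gene was overlapped by 9 regions (3.3%) against 16 (1.41%), a difference of 1.88 points (0.102 to 4.78, adjusted p = 0.064 by Fisher's exact test) that missed the threshold of 0.05 (it passed at 2.09 points without the V5 list of K450RK451R), beside 3.82% of genome bases. A coding start lay within 1 kb of 6 regions (2.2%) and of 6 regions with an EHMT1 or V5 peak (0.531%). The share of genome bases, 1.3%, lay between them. The difference was 1.67 points (0.327 to 4.2, adjusted p = 0.033 by the same exact test). It rested on 6 regions on each side. It did not pass when H3K9me2 peaks were filtered at a −log10 q of 5 (0.79 points) or when the H3K9me2 list of WT (1.46) or K450R (1.08) was omitted. For the pooled measures of repeat content that were tested, no difference passed. A tandem repeat, called when a window of 401 bases matched itself by at least 70% at a lag of up to 200 bases, lay at 124 summits (45.4%) against 489 (43.2%), a difference of 2.19 points (−4.3 to 8.77, adjusted p = 0.574 by the exact test), which passed at 7.34 points without the V5 list of K450RK451R. Windows without a single 51-base stretch (the read length) that is unique in the genome numbered 45 (16.5%) against 169 of 1124 (15.0%), a difference of 1.45 points (−3.06 to 6.69, adjusted p = 0.574 by the exact test). Among 28353 evenly spaced windows of the genome these shares were 0.282% and 2.0%. The kinds of tandem repeat differed between the sets, which was not tested. Periods of 5 bases or short multiples of it lay at 7 regions (2.56%) against 93 (8.22%). Other periods of up to 100 bases lay at 70 (25.6%) against 161 (14.2%).

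**Figure D4:**
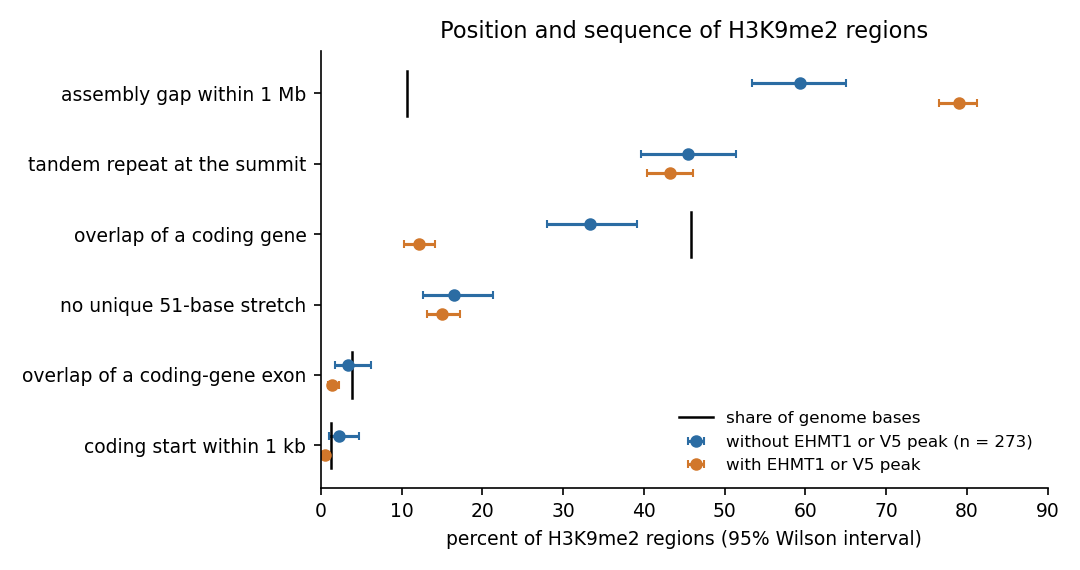
Percent of H3K9me2 regions (horizontal axis) with each of 6 properties (vertical axis) for the 273 regions without an EHMT1 or V5 peak (blue) and those with one (orange), with 95% Wilson intervals as bars and, for the 4 positional properties, the percent of genome bases as a black line. The 2 sets stood apart for assembly gaps (59.3% and 79.0%) and coding genes (33.3% and 12.1%), and their intervals overlapped for tandem repeats and unique stretches.

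Part of the regions near gaps lay in satellite DNA. A repeat period of 169 to 173 bases, that of the alpha satellite monomer, was found at 35 of the 273 regions and at 184 of the 1131, and 32 of the 35 lay within 1 Mb of a gap. Their median GC content was 37.3%, against 45.8% over all 273 regions and 39.8% over the genome windows. A CENP-B box lay in 11 windows (4.03%) against 119 (10.5%). Pairs of the GGAAT unit, which makes up the human satellites 2 and 3, lay in 10 (3.66%) against 173 (15.3%). Pairs of the telomere unit TTAGGG lay in none (0 of 273, which allows up to 1.1%) against 16. By location, 1-Mb windows with the most regions were chrX 61 to 62 Mb with 6, followed with 5 each by chr7 61 to 62 Mb, chr10 42 to 43 Mb and chr4 49 to 50 Mb. All of these windows held more regions with an EHMT1 or V5 peak, from 30 to 75. By contrast, chr2 91 to 92 Mb held 4 of the regions and 2 of the others, and chr9 68 to 69 Mb 4 and 3.

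The windows were often copies of each other. At 163 of the 273 regions (59.7%) the window had a match of at least 80% identity over at least 100 bases in the window of another H3K9me2 region, against 934 of 1131 (82.6%). The match was to a region with an EHMT1 or V5 peak at 145 of the 273. At the other end, 50 of the 273 windows (18.3%) held only unique stretches, against 100 (8.84%). How reads that fit several places were treated was not given in the sources used here, and its part in these counts was not tested.

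**Figure D5:**
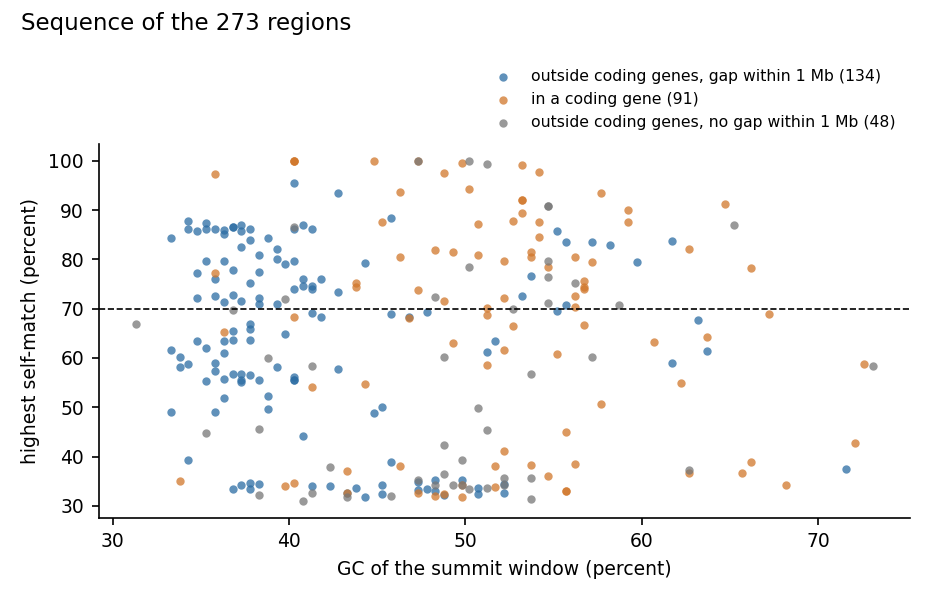
GC content of the summit window (horizontal axis, percent) and highest self-match at a lag of 1 to 200 bases (vertical axis, percent) for each of the 273 regions, coloured by position, with a dashed line at the 70% from which a tandem repeat was called. Regions near a gap and outside coding genes (134, blue) had a median GC of 39.3%, and regions in coding genes (91, orange) one of 52.2%.

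Among intergenic regions with a peak in the K450RK451R line alone, the highest −log10 q, 18.3, belonged to chr19:27739424-27739524, with 66 reads over a background of 14.2 (4.41-fold), at 7.64 kb from a gap. Its window resembled those of 121 other regions. The CENP-B box printed above for it was also present, with the same letters, in the window of ANKRD30BL. The background of this peak was far above the median of 0.635 reads in that line over the 273 regions.

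Of the other regions named for their strength in a single line, the 10 given next lay within 1 Mb of a gap, several of them in alpha satellite. A further 1, which is not reported here, lay farther from a gap and resembled no other window. For WT they were chr2:92320077-92320177 (118 reads over 45, 2.59-fold), chr3:90456832-90456933 (6.99-fold) and chr8:43805207-43805307 (7.42-fold), with a period of 171 bases as their best self-match. For K450R they were chr7:61986181-61986282 (6.57-fold, with a CENP-B box), chr8:46866788-46866887 (7.32-fold) and chr16:33879608-33879707 (6.69-fold). For K451R they were chr7:57546705-57546825 (7.88-fold) and chr5:46380753-46380873 (6.79-fold), and for K450RK451R chr11:55024946-55025086 (9.85-fold) and chr3:90486360-90486461 (8.89-fold). The windows of these 10 resembled those of 86 to 437 other H3K9me2 regions, and the nearest EHMT1 or V5 peak lay 108 to 3054 bp away.

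The summits of the 273 regions lay between genes at 156, in introns of coding genes at 83, in introns of non-coding genes at 24, in coding exons at 5 and in untranslated exon parts at 2, with 3 in other exons. The 91 regions that overlapped a coding gene fell in 79 genes, of which 69 held 1 region, 8 held 2 and 2 held 3. A tandem repeat was found at 48 of the 91 (52.7%), and 1 of these 48 had a period of 169 to 173 bases. The 137 regions in coding genes that had an EHMT1 or V5 peak gave 71 (51.8%) and 5. The periods varied, for example 4 bases in CFAP61, 67 in ACTN2 and 192 in PRKCZ. The median GC content was 52.2%, against 54.7% at those 137, and the median highest −log10 q 4.66, against 12.8. Of the 91, 36 (39.6%) lay within 5 Mb of a chromosome end, against 51 of the 137 (37.2%).

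The strongest intronic regions were shared by up to 3 lines. Since no region had a peak in all 4 lists, the 4 with a peak in 3 lists are named in their place, a choice made after their values were seen. In intron 16 of MICAL3, a monooxygenase that acts on actin and vesicle traffic, chr22:18360238-18360379 had a fold enrichment of 10.2 in K450R, 10.1 in K451R and 9.03 in K450RK451R, and no peak in WT. The pileups were 16, 22 and 13 reads. The window printed above is a repeat of 18 bases with a self-match of 68.8%, just under the limit, and a second region of the same intron (chr22:18359679-18359790, K451R, 7.89-fold) had a self-match of 94.4% at the same period. The nearest EHMT1 or V5 peak was 51239 bp away.

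CHL1, a neural cell adhesion molecule, held a region in intron 2, 0.304 Mb from the end of chromosome 3. At chr3:303646-304034 the fold enrichment was 5.38 in WT, 7.41 in K451R and 9.88 in K450RK451R, with 9, 17 and 16 reads and no peak in K450R. Its 45-base repeat left no unique 51-base stretch in the window, with a median of 11 copies of each stretch in the genome. An adjoining region (chr3:304035-304176) had a peak in K451R (5.79-fold). PRKAR1B, which encodes a regulatory subunit of the cyclic AMP-dependent kinase, held chr7:628056-628488 in intron 7, with 6.91-fold enrichment in K450R, 5.95-fold in K451R and 10.4-fold in K450RK451R. WT again had no peak there. The 3 gene regions thus shared K451R and K450RK451R, and no WT peak was listed at 2 of them. The other region with a peak in 3 lists, chr4:9273562-9273716, had peaks in WT, K450R and K451R and none in K450RK451R. Over all merged regions, the K451R list marked 80.3% and the K450RK451R list 57.7%, beside 49.3% for WT and 51.2% for K450R. Whether the sharing went beyond the size of the lists was not tested.

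Other intronic regions with high q-values lay in CFAP61, a component of cilia (chr20:20318033-20318153, K451R, 8.33-fold, the GGAT repeat printed above), in ERC1, a scaffold of vesicle release (chr12:1194658-1194787, 8.9-fold in K450R and 8.02-fold in K451R), and in PRKCZ, an atypical protein kinase C (chr1:2053285-2053390, 8.89-fold in K450R and 8.28-fold in K450RK451R). PRKCZ held a second region in the same intron 4 (chr1:2055648-2055747, K450RK451R, 7.32-fold). ANKRD30BL held chr2:132975462-132975561 (K451R, 6.44-fold), an island of alpha satellite 16700 kb from the nearest gap with a self-match of 97.4%.

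Some genes held several regions, in 1 repeat array or in more. ACTN2, the alpha-actinin of muscle, held 3 regions in intron 1, all from the K450RK451R line and within about 1 kb (chr1:236877188-236877359, chr1:236877703-236877817 and chr1:236878104-236878249). Their fold enrichments were 5.83, 6.14 and 6.14 with 12, 13 and 13 reads, and all lay in a perfect 67-base repeat with a self-match of 100% and a median of 21 copies. RPS6KA2, a ribosomal S6 kinase, held 3 regions at 2 places, 1 from K451R (6.36-fold) and 2 from K450RK451R (8.44 and 6.62-fold). PTPRN2, a receptor-like phosphatase of secretory granules, held 2 from K450RK451R (5.84 and 5.66-fold, 8 reads each). Regions in 1 array share their sequence and are not independent of each other.

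The lines differed in where their own regions lay. Of the 68 regions marked in K450RK451R alone, 33 (48.5%) were in a coding gene, 24 of them at a tandem repeat, and 31 (45.6%) were near a gap. Of the 124 marked in K451R alone, 29 (23.4%) were in a coding gene, 12 of them at a tandem repeat, and 82 (66.1%) were near a gap. A tandem repeat with a period of 169 to 173 bases was found at 23 of the K451R regions and at 2 of the K450RK451R regions. The median GC content was 41.5% and 51.2%. The 23 WT regions held 9 in coding genes and 16 near a gap, and the 26 of K450R held 10 and 13. Regions with an EHMT1 or V5 peak showed GC medians on the same sides, with 41.8% for the 210 marked in K451R alone and 52.0% for the 64 marked in K450RK451R alone. The same held there for coding genes (11.4% and 20.3%), nearness to a gap (76.7% and 64.1%) and a tandem repeat of that period (15.7% and 7.81%). Depth moved with these values, since K451R had the most reads and K450RK451R the fewest, and its part in them was not tested.

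Regions in exons or near starts of coding genes were few. The 8 strongest had a highest −log10 q of 3.89 to 9.42, against a median of 5.57 over the 273 regions. FOXA1, the pioneer factor of luminal prostate cells that opens chromatin for the androgen receptor, held 2 regions in its coding exon 2. The first, chr14:38061696-38061823, had a WT peak of 6.94-fold (14 reads over 1.16), and the second, chr14:38061432-38061531, a K450RK451R peak of 5.68-fold (9 reads over 0.76). They lay 346 and 82 bp from a V5 peak of the K450RK451R line (chr14:38060970-38061350, 5.97-fold) in the same gene. A further H3K9me2 peak, in WT at chr14:38061135-38061341 (5.56-fold), overlapped that V5 peak and so belonged to the other set. The windows were free of tandem repeats and fully unique, and that of the first held 17 CpG dinucleotides at a GC content of 65.7%. CDC27, a subunit of the anaphase-promoting complex, held a K451R peak in coding exon 13 (chr17:45216142-45216269, 4.94-fold), and MUC3A, a membrane mucin, a K451R peak in an exon with a 51-base repeat (chr7:100550946-100551045, 6.86-fold), 5.0 kb from a gap.

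Untranslated parts of exons held a K451R peak in ITGB1BP1 (chr2:9546146-9546245, 6.73-fold), 75 bp from an EHMT1 or V5 peak, and a WT peak in VPS53 (chr17:413589-413688, 6.91-fold). A K451R peak lay 0.923 kb from the start of FCMR, a receptor for IgM (chr1:207097515-207097645, 5.02-fold). The other regions near a start included 2 in the cluster of USP17L genes on chromosome 4, which encode deubiquitinases in a tandem array. At chr4:9273562-9273716, 0.374 kb from the start of USP17L23, the fold enrichment was 6.83 in WT, 6.34 in K450R and 6.15 in K451R, with 16, 12 and 18 reads and no peak in K450RK451R. At chr4:9326054-9326155, 0.736 kb from the start of USP17L24, K451R alone had a peak (6.34-fold). The 51-base stretches of both windows had a median of 14 copies in the genome, although 49 and 43 of the 151 stretches were unique. Which gene of the cluster the reads came from was not tested.

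Of all 63827 annotated genes, 236 (0.37%) lay within 10 kb of the 273 regions, and of 20098 coding genes 118 (0.587%), so that a count of 0 in a short list reads as no result. None of 9 H3K9 methyltransferases, 11 H3K9 demethylases, 11 readers and partners of the mark or 20 neuronal genes repressed by REST did, and of 18 luminal prostate genes and androgen receptor targets FOXA1 did. EHMT1 itself lay within 10 kb of a region with an EHMT1 or V5 peak, as did FOXA1. The share of all genes that near to those regions was not computed. All lines with H3K9me2 lists carried an introduced EHMT1 construct, and its part in the peak near EHMT1 was not tested. Among gene families, 5 of 30 USP17L genes (USP17L21 to USP17L25) lay within 10 kb of the 273 regions, all of them beside the same 2 regions in 1 tandem array. So did 2 of 667 ZNF genes and 1 of 15 ANKRD20A genes. The ZNF genes were ZNF229 (chr19:44959491-44959590, K451R, 6.29-fold) and ZNF595 (chr4:52183-52282 in K450R, 4.23-fold, and chr4:64839-64953 in K451R, 4.39-fold), and the ANKRD20A gene was the pseudogene ANKRD20A17P. No OR, clustered PCDH, NBPF, GOLGA or TBC1D3 gene did. No USP17L gene lay within 10 kb of a region with an EHMT1 or V5 peak. Of the other families, 4 ZNF genes (ZNF229 among them), 6 of 15 ANKRD20A genes (ANKRD20A17P among them) and 1 OR gene lay that near.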

How the data were processed

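ChIP-seq reads (51 nt, single-end) were mapped to hg19 and peaks called with MACS2 by the authors, and the submitters' processing notes name BWA 0.7.9a, SAMtools 1.2, MACS2 2.1.0 and FastQC 0.11.9. The authors deposited 9 narrowPeak lists. The values the authors gave for a peak are a fold enrichment (ratio of pileup to local background), −log10 p, −log10 q (a score by which regions were ranked here), an integer score of about 10 times that value, which was not used, and the summit position. Nothing per replicate was analysed here.

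Pileup and background were solved from the deposited fold and −log10 p (a solution was found for every peak), and the lowest common background, times 2.7 Gb and divided by a read extension of 100 bp, gave the estimated reads: 8.79 to 27.6 M (M, mega) for H3K9me2, 8.84 to 22.7 M for V5 and 26.8 M for EHMT1. The extension and genome size were inferred or assumed. Peaks on chromosomes 1 to 22 and X sharing at least 1 bp were merged. Genes came from GENCODE 44 mapped to hg19. Each region was described at the summit of its peak with the highest −log10 q, by the number of times each of its 51-base stretches occurs in the genome on both strands, by its self-match and by blastn 2.17.0. Shares of regions without and with an EHMT1 or V5 peak were set against each other by Fisher's exact test (two-sided), with Newcombe intervals of the difference. Code was tested on simulated data. Python 3.11.15, numpy 2.4.6, pandas 2.3.3, scipy 1.17.1 and numba 0.67.0 were used.

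The members, gene lists and tests were chosen with earlier results of these data known. Regions were named by their highest −log10 q: the 3 strongest in each line alone, the 8 strongest in exons or near starts and the 8 strongest in introns of coding genes, those within 10 kb of listed genes, and the windows and genes with the most regions. Some items chosen by this rule are not reported here. The alternatives were stricter q and fold limits, equal numbers of peaks per list, wider merging or overlap, other distances, a stricter self-match and the omission of lists.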

Additional observations from a re-analysis of the deposited data

How the results depend on the processing

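The number of regions without an EHMT1 or V5 peak depended on the limits. It was 158 with H3K9me2 peaks of a −log10 q of at least 5, 31 at a limit of 10, 98 when all H3K9me2 lists were cut to the same size, 152 without the H3K9me2 list of K451R and 474 without the V5 list of K450RK451R. Under the other alternatives it was within 1.5 times 273. The share marked in 1 list was 91.8% with equal numbers, 82.1% when the V5 list of K450RK451R was omitted, 93.4% when the H3K9me2 list of K451R was, and 93.8% when that of K450RK451R was. The share marked in K451R was 62.7% and 61.3% at a −log10 q of 5 and 10, 45.7% at a fold enrichment of at least 5, 15.3% with equal numbers and 72.6% when the H3K9me2 list of K450RK451R was omitted.

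The difference for coding genes kept its direction and passed the test under every alternative, with 13.8 to 29.4 points. That for assembly gaps did so except at a −log10 q of 10 (−6.34 points, with 31 regions left). For exons the difference was −1.15 points at a −log10 q of 10. It passed the test at 2.25 points when EHMT1 and V5 peaks needed a −log10 q of 5, at 2.09 when the V5 list of K450RK451R was omitted and at 2.54 when its H3K9me2 list was. For coding starts it missed the threshold at 0.79 points for a −log10 q of 5, 1.78 for a fold of 5, 1.52 for equal numbers, 1.97 for merging within 1 kb, 1.46 and 1.08 when the WT or K450R H3K9me2 list was omitted, 0.541 farther than 1 Mb from gaps and 1.15 for regions in 1 list, and it was −0.509 at a −log10 q of 10. Unique stretches gave −6.99 points at a −log10 q of 10. Tandem repeats gave −2.51 there, −0.942 with merging within 1 kb and −2.03 for regions in 1 list, and passed the test at 7.34 when the V5 list of K450RK451R was omitted and at 6.1 with a self-match of 80%. The restriction to regions in 1 list was chosen after seeing the data. The causes of these changes were not tested, beyond the fewer regions left by stricter limits.

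No paired analysis was possible because the deposited lists, 1 for each group, carry no replicate numbers. The lowest pileup over a summit of the 273 regions was 7 reads in WT and K450R, 8 in K451R and 6 in K450RK451R, so that counting error is large for single regions.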
